A study of Rattus norvegicus with 6 samples.

Results

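The ABC (ATP-binding cassette) transporters and the organic ion carriers of the SLCO and SLC22 families were examined in rat brain microvascular endothelial cells (rBMECs). Genes were taken from the deposited gene table by symbol, as any name starting with Abca to Abcg, Slco or Slc22a and a number, which gave 81 of 33566 rows and 80 distinct symbols because Slco6d1 has more than 1 row. They comprised 49 ABC, 16 SLCO and 16 SLC22 rows. RNA was sequenced from 6 libraries of primary rBMECs, isolated with a kit from the cerebral cortex of SD rats aged 18 to 22 days according to the labels, with no genetic modification named. Hcy1 to Hcy3 came from cells given 100 μM homocysteine (Hcy) for 24 h and Veh1 to Veh3 from cells given the ddH2O vehicle, while the treatment text also mentions a 50 μM prepared Hcy solution, so the concentration on the cells carries this ambiguity. The series calls the 3 libraries of each group biological replicates, but whether they came from separate isolations or animals is not stated, so the tests below measure the spread between these libraries.

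ABC transporters use ATP to move substrates across membranes. At the luminal face of the brain endothelium, P-glycoprotein (Abcb1a and Abcb1b in rodents), Bcrp (Abcg2) and several Mrp proteins (the Abcc genes) return drugs and conjugated metabolites to the blood. The organic anion transporting polypeptides (SLCO) carry bile acids, thyroid hormones, prostaglandins, steroid sulphates and many drugs, and SLC22 holds the organic cation, carnitine and organic anion transporters. The comparison asks whether exposure to Hcy, an amino acid whose excess is linked to vascular injury, changed the mRNA of these carriers.

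P-glycoprotein has no row under its own symbols in the count table. The row named Abcb4 (ENSRNOG00000008012, chromosome 4, 22133521 to 22425515, minus strand, positions as the table lists them without naming a build) is annotated there with the protein match of rat Abcb1, and lies between Crot and Rundc3b. In the RefSeq annotation of GRCr8 the stretch between those neighbours holds Abcb4, Abcb1b and Abcb1a. The row spans 291995 bp and its listed exon length is 14132 bases. Its reads are therefore given as the Abcb4 row. How they divide between the P-glycoprotein genes and Abcb4 proper, which encodes the phosphatidylcholine floppase of bile canaliculi, cannot be told from these counts.

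The start regions of 4 genes named in the results below are shown as RefSeq lists them on GRCr8. They run from 250 bases before to 50 bases after the start and are written 5′ to 3′ on the gene's strand. Capitals mark matches, on either strand, to TGACNNNGC, the core of the antioxidant response element to which Nrf2 binds, or to GCGTG, the core of the element bound by the aryl hydrocarbon receptor. These regions are Slco2b1 (chr1:163408016-163408315, minus strand), the uptake carrier with the smallest adjusted p; Abcg2 (chr4:89075224-89075523, plus strand), the luminal pump Bcrp; Abcc2 (chr1:252613625-252613924, plus strand), the pump with the lowest fitted change; and Slc22a23 (chr17:30749195-30749494, plus strand), the listed SLC22 member with both motifs.
Slco2b1: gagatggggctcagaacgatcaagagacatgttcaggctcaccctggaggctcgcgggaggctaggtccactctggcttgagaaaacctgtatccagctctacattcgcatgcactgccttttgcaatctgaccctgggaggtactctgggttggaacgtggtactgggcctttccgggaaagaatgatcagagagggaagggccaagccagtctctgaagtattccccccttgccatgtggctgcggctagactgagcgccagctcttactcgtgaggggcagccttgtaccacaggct
Abcg2: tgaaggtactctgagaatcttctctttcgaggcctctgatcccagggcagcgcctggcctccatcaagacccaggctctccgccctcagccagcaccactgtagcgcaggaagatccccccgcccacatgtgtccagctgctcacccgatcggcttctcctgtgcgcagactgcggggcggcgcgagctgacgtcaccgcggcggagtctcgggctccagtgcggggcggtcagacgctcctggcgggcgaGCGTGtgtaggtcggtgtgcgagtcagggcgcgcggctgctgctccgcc
Abcc2: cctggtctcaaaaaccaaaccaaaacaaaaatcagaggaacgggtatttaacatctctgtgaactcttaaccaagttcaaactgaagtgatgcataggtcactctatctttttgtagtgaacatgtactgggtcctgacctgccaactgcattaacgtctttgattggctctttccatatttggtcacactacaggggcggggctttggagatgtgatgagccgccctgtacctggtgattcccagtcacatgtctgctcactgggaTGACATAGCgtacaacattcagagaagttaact
Slc22a23: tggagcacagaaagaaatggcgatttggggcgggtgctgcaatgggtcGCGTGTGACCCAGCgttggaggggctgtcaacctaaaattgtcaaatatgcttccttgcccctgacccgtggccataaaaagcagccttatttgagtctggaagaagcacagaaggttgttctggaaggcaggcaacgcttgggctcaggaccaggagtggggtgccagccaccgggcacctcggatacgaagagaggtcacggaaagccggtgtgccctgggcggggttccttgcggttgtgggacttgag
The Slco2b1 window held neither motif, that of Abcg2 held GCGTG from 2 bases after the start, and that of Abcc2 held TGACNNNGC from 18 bases after it. In Slc22a23 the GCGTG match is followed directly, without overlap, by the TGACNNNGC match. Start regions were found for 65 of the 80 symbols. TGACNNNGC was in 8 of them (12.3%) and in 12.1% of all 33469 listed start regions, while GCGTG was in 28 (43.1%) and in 29.7% of all. Among the 41 tested genes with a start region, TGACNNNGC was in 4 (9.76%), which were Abca5, Abcc10, Abcc2 and Slc22a23, and GCGTG in 23 (56.1%). A match describes these letters only, and no binding was measured.

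Libraries held 14024997 to 16764584 counts, and 3 counts, taken as the floor, corresponded to 0.178 to 0.215 CPM (a gene's counts relative to the library total, scaled by edgeR's TMM factors). Veh3 stood apart from the rest: the chi-square per gene against the other Veh libraries was 26.2 to 29.5, compared with 6.65 between Veh1 and Veh2 and 5.77 to 7.76 within Hcy. Of 15 endothelial markers, 14 were in the table, and none passed the test. Their summed level was 2116 to 2320 CPM per kb in Veh and 2307 to 2391 in Hcy. Cldn5, the main claudin of brain endothelium, had 0 counts in every library. Whether its row missed reads was not tested, so the 0 counts are not read as absence of the transcript. The 10 pericyte and smooth muscle markers summed to 881 to 1059 CPM per kb in Veh and 530 to 551 in Hcy. Of these, the contractile genes Acta2, Tagln and Cnn1 fell (log2 fold changes of −0.64, −0.88 and −1.39, edgeR adjusted p = 0.0248, 0.000801 and 0.00177), and the other 7 did not pass. Among those, contractile Myh11 had −0.04 and Des 0.55, and the pericyte genes Pdgfrb, Rgs5 and Cspg4 had 0.73, 1.26 and 1.66 and Kcnj8 and Anpep −0.99 and −1.09, all 5 at group means of at most 0.573 CPM per kb. Astrocyte Aqp4 and Slc1a2, microglial Cx3cr1, P2ry12 and Ptprc, and neuronal Rbfox3, Snap25 and Map2 were at 0, which was 2 of 6, 3 of 7 and 3 of 7 of their lists. The astrocyte list summed to 40.2 to 48.0 CPM per kb in Veh and 36.1 to 37.1 in Hcy, mostly from Gja1, a gap junction gene that endothelium also expresses (44.6 CPM per kb in Veh). The microglial list summed to 0.55 to 0.932 and 0.351 to 0.652, and the neuronal list to 2.59 to 3.6 and 3.33 to 4.69, mostly from Tubb3. Of the remaining lists, none of whose genes was at 0, the oligodendrocyte one summed to 28.7 to 32.5 and 29.7 to 31.4 CPM per kb (Cnp and Mog the highest), the fibroblast one to 11.2 to 15.9 and 8.25 to 12.2 (Col1a1 the highest), and the choroid plexus and epithelial one to 0.279 to 0.518 and 0.164 to 0.37. No gene of these 6 lists passed the test. The part of the contractile genes in the transporter results was not tested. In bulk RNA a change in the share of cells carrying a transcript and a change in its amount per cell cannot be told apart.

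Of these carriers, only the uptake carrier Slco2b1 passed the test after Hcy, at a higher level, and the P-glycoprotein locus and Bcrp did not pass. Of the 81 rows, 48 had at least 10 counts over the 6 libraries and were tested, comprising 36 ABC, 6 SLCO and 6 SLC22 genes. A further 14 had 1 to 9 counts in all (Abca6, Abca8a, Abca14, Abca17, Abcb11, Abcc8, Abcc12, Slc22a7, Slc22a12, Slc22a13, Slc22a20, Slc22a25, Slco1a2 and Slco5a1). The other 19 rows had no count. They included Slc22a2, Slc22a3 and Slc22a6, organic cation and anion transporters, the hepatic Slco1b2, the sterol pumps Abcg5 and Abcg8, and Slc22a22, Abca8, Abca12, Abca15, Abcb5, Slco1a1, Slco1a6, Slco4c1, Slco6b1, Slco6c1 and both rows of Slco6d1. With 0 counts, each library still allows up to its floor of 0.178 to 0.215 CPM.

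None of the 48 reached an adjusted p of at most 0.05 together with a log2 fold change of 1 or more in either direction (0 called by edgeR and 0 by DESeq2, against 0.486% of the 14603 genes tested). With no fold threshold, the quasi-likelihood test of edgeR, adjusted by Benjamini-Hochberg over all tested genes, called 1 member, Slco2b1, against a background of 2.34% (1.32% higher and 1.01% lower). An unadjusted p of at most 0.05 was found in 8 members, 4 higher and 4 lower, against 13.4% of all genes. Groups were without overlap for 11 members, 6 of them above and 5 below Veh, beside 20.1% of all genes tested (10.8% above and 9.27% below). The share of members without overlap was 22.9%, close to the background.

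The median log2 fold change of the tested members was 0.03, beside −0.02 over all genes, with 26 members higher and 22 lower by the fit, where 53.1% of all genes were lower. Of the 48, 40 (83.3%) lay within 0.5 log2 units of no change, as did 82.7% of all genes. For 35 of the 48 the whole 95% interval lay within 1 log2 unit of no change, as it did for 10544 of all 14603 genes tested. The summed level of all members was 502 ± 23.9 CPM per kb in Veh and 498 ± 8.85 in Hcy (SD, n = 3). The plot of fitted changes shows where the wide intervals belong to genes with few counts.

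**Figure D1:**
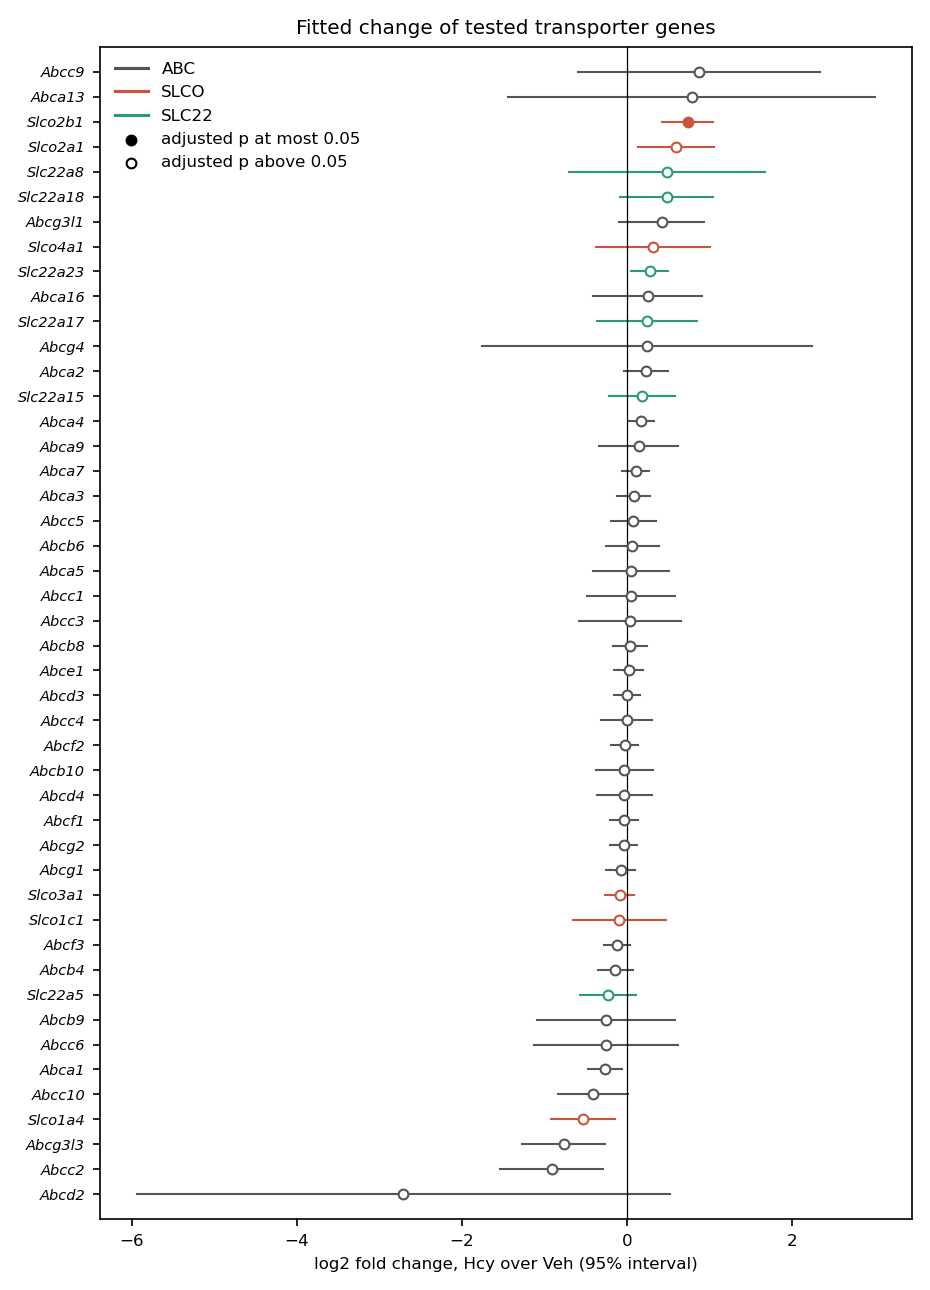
Fitted log2 fold change (Hcy over Veh, horizontal axis) of 46 of the 48 tested ABC, SLCO and SLC22 genes, sorted from highest to lowest, with bars for the 95% interval of edgeR's fit and colour for the family. The filled point, Slco2b1 at 0.74, is the member with an adjusted p of at most 0.05; the widest interval is that of Abcd2, with 10 counts in all.

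Among the efflux pumps the Abcb4 row was by far the most abundant. Per kb of listed length, the only scale on which levels of different genes are compared here, it stood at 75.3, 75.2 and 60.3 CPM per kb in Veh1 to Veh3 and at 61.0, 66.4 and 64.1 in Hcy1 to Hcy3. It was thus high in Veh1 and Veh2, while Veh3 was below all Hcy libraries, so the groups overlapped. The Veh mean of 70.3 ± 8.62 CPM per kb lay at percentile 91.2 of the tested genes and was the highest of all members, and the row took 33.1% to 37.5% of all member counts in a library. In CPM it was 993 ± 122 in Veh and 902 ± 38.4 in Hcy (SD, n = 3), with a log2 fold change of −0.14 (SE 0.09, 95% interval −0.35 to 0.07, edgeR adjusted p = 0.595). Without Veh3 the log2 fold change was −0.24 with an adjusted p of 0.0208, and over all alternatives the adjusted p ran from 0.0208 to 0.825.

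Abcg2, which encodes Bcrp, was next, with 20.4, 19.7 and 18.7 CPM per kb in the Veh libraries and 18.7, 19.4 and 19.1 in the Hcy libraries. The libraries lay close together and overlapped, at 53.8 ± 2.36 CPM in Veh and 52.3 ± 0.926 in Hcy (SD, n = 3). Its log2 fold change was −0.04 (SE 0.07, 95% interval −0.20 to 0.12, edgeR adjusted p = 0.874), the most precise estimate among the listed pumps. The Abcb4 row exceeded Abcg2 per kb by a factor of 3.69, 3.82 and 3.23 in Veh1 to Veh3 and of 3.26, 3.42 and 3.36 in Hcy1 to Hcy3. That ratio rests on the listed length of a row that may hold several genes.

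The Mrp pumps followed in the order Abcc4, Abcc1, Abcc5, Abcc10, Abcc3, Abcc2 and Abcc6. Abcc4, which exports cyclic nucleotides and nucleoside analogues, stood at 13.8 ± 2.57 CPM per kb in Veh and 13.8 ± 1.31 in Hcy (SD, n = 3), with a log2 fold change of 0.00 and a 95% interval of −0.31 to 0.31. Abcc1, an exporter of glutathione conjugates, was at 7.57 ± 2.37 CPM per kb and Abcc5, another exporter of cyclic nucleotides, at 6.93 ± 1.07 in Veh, and their Veh ranges overlapped. Abcc10 was at 1.34 ± 0.280, Abcc3 at 0.598 ± 0.148, Abcc2 at 0.449 ± 0.0959 and Abcc6 at 0.215 ± 0.0419 CPM per kb in Veh. Of these neighbours in the order, the Veh ranges of Abcc3 and Abcc2 overlapped and the others did not. Abcc12 had 3 counts in all libraries together and was not tested.

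**Figure D2:**
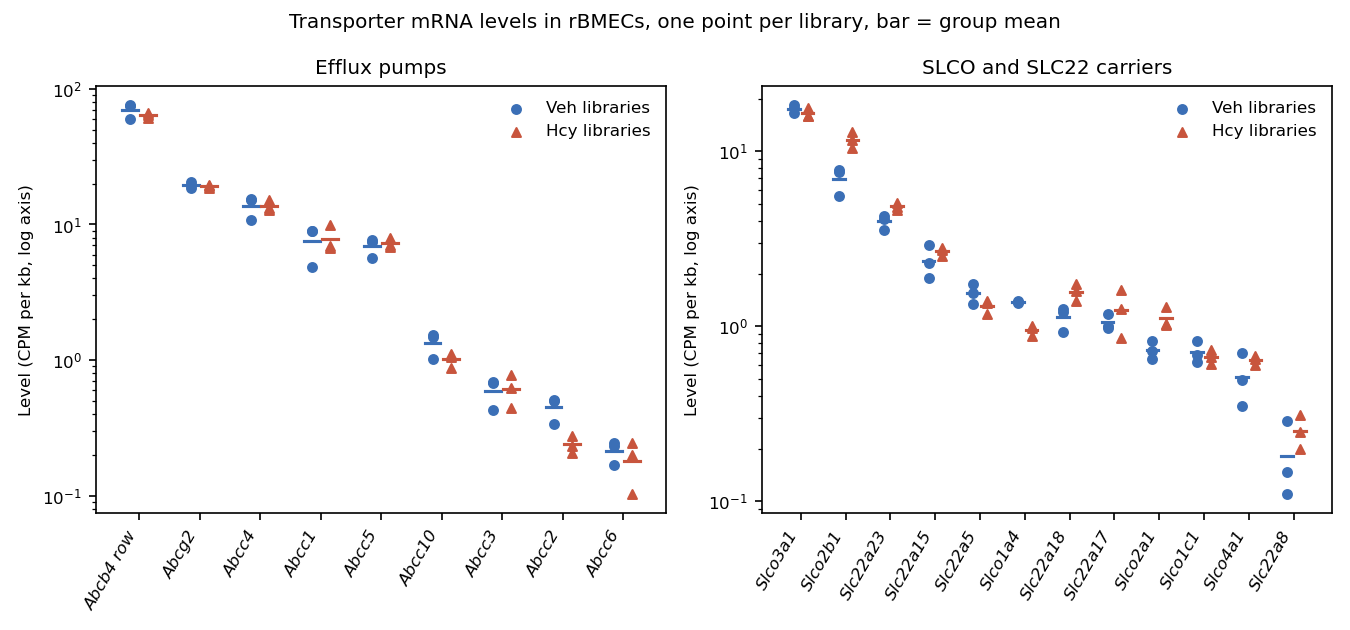
Level of the efflux pumps (left) and of the tested SLCO and SLC22 carriers (right) in CPM per kb on log axes, 1 point per library (circles Veh, triangles Hcy) with a bar at the group mean. The Abcb4 row lies at 60.3 CPM per kb or above in every library, Abcg2 near 19, and the Slco2b1 triangles lie above its circles.

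None of the 8 tested pumps on the list passed, 3 being higher and 5 lower by the fit, with a median log2 fold change of −0.02, which was that of all genes as well. The 9 listed rows, untested Abcc12 included, summed to 50.5 ± 7.36 CPM per kb in Veh and 50.0 ± 3.42 in Hcy (SD, n = 3). This sum leaves out the Abcb4 row, which alone stood at 70.3 CPM per kb in Veh and 63.8 in Hcy. The log2 fold change was 0.05 for Abcc1 (95% interval −0.49 to 0.58, edgeR adjusted p = 0.961), 0.08 for Abcc5 (−0.20 to 0.35, 0.857) and 0.04 for Abcc3 (−0.58 to 0.66, 0.973). Abcc10 had −0.41 (−0.83 to 0.02, 0.396) and Abcc6 −0.25 (−1.13 to 0.62, 0.851). Abcc1 was low in Veh3 (22.1 CPM, against 41.2 and 40.8 in Veh1 and Veh2 and 30.7 to 45.3 in Hcy), and without that library its log2 fold change turned to −0.19. A further 6 rows carry the protein match of Abcc1 and held 734 counts beside its own 3291, and summing them, an alternative chosen after seeing the data, gave 0.10 (adjusted p = 0.901). Abcc5 overlaps Yeats2 on the other strand, which held 3555 counts beside the 3935 of Abcc5, and whether counting used the strand is not given in the sources used here.

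Abcc2, the Mrp2 pump for glucuronide and glutathione conjugates, was the only listed pump whose groups did not overlap. That was 12.5% of the 8 tested pumps, beside 20.1% of all genes tested (9.27% below Veh). The counts of Abcc2 were 49, 45 and 28 in Veh1 to Veh3 and 22, 20 and 20 in Hcy1 to Hcy3. All Hcy libraries lay below all Veh libraries, with Veh3 nearest to them. The level was 2.57 ± 0.549 CPM in Veh and 1.37 ± 0.195 in Hcy (SD, n = 3), and the log2 fold change was −0.91 (SE 0.28, 95% interval −1.53 to −0.29, edgeR adjusted p = 0.162). The adjusted p ran from 0.0525 without Veh3 to 0.439 without Hcy3, so it did not pass under any alternative run.

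Slco2b1 (Oatp2b1, a carrier of steroid sulphates and statins) rose 1.67-fold after Hcy. The gene is listed on chromosome 1 at 164623599 to 164671577 on the minus strand. Its level was 32.9, 33.6 and 24.0 CPM in Veh1 to Veh3 and 45.3, 50.2 and 55.7 CPM in Hcy1 to Hcy3, from 347 to 554 and 631 to 934 counts. Every Hcy library was above every Veh library, and Veh3 was the lowest of the 6. The means were 30.2 ± 5.35 and 50.4 ± 5.22 CPM (SD, n = 3), with a log2 fold change of 0.74 (SE 0.14, 95% interval 0.43 to 1.05, edgeR adjusted p = 0.0272).

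The size of the Slco2b1 difference was retained when a library was left out, from 0.60 to 0.82 log2 units, but the call was not. Without Veh3 the adjusted p was 0.00417. It was 0.0664 without Veh1, 0.0548 without Veh2, 0.0752 without Hcy1, 0.100 without Hcy2 and 0.15 without Hcy3, from edgeR fits to 5 libraries. With all 6 libraries, the other settings kept the call, the adjusted p lying between 4.54e-05 with DESeq2 and 0.0454 with the replicate number as a block.

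The other tested SLCO genes did not pass, and the family as a whole was unevenly expressed. Slco3a1, which carries prostaglandins and thyroxine, was the most abundant at 17.5 ± 0.894 CPM per kb in Veh (SD, n = 3), followed by Slco2b1 at 6.98 ± 1.24, Slco1a4 at 1.38 ± 0.0137, Slco2a1 at 0.734 ± 0.0888, Slco1c1 at 0.713 ± 0.104 and Slco4a1 at 0.515 ± 0.176. The Veh ranges of Slco2a1, Slco1c1 and Slco4a1 overlapped from one to the next. Slco1a4 and Slco1c1, the carriers best known from the rodent blood–brain barrier, were thus lower than Slco3a1 and Slco2b1 in these cultures. Of the 16 SLCO rows, 8 were at 0 in every library.

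Slco1a4, the Oatp1a4 carrier of bile acids and digoxin, was at 5.22, 5.16 and 5.12 CPM in Veh1 to Veh3 and at 3.66, 3.76 and 3.28 in Hcy1 to Hcy3. The Veh libraries were nearly equal and all above the Hcy libraries. Its log2 fold change was −0.53 (SE 0.17, 95% interval −0.92 to −0.15, edgeR adjusted p = 0.187, 0.153 to 0.475 over the alternatives). Slco2a1, the prostaglandin transporter, was at 2.91, 2.61 and 3.32 CPM in Veh1 to Veh3 and at 5.17, 4.10 and 4.12 in Hcy1 to Hcy3. All Hcy libraries were above Veh, with a log2 fold change of 0.60 (SE 0.20, 95% interval 0.13 to 1.06, adjusted p = 0.221). Slco3a1 had −0.09 (95% interval −0.26 to 0.09, with −0.053 when Veh1 and −0.13 when Hcy1 was left out) and Slco1c1, the thyroxine carrier, −0.09 (−0.66 to 0.48), both with overlapping groups.

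With Slco2b1 higher and Slco1a4 lower by the fit, their ratio per kb was 5.46, 5.65 and 4.07 in Veh1 to Veh3 and 10.7, 11.6 and 14.7 in Hcy1 to Hcy3. The 2 groups of ratios did not overlap. The pair was chosen after its values were seen, so the ratio is a description. Summed over the family, the SLCO level was 27.8 ± 2.09 CPM per kb in Veh and 31.6 ± 0.566 in Hcy (SD, n = 3), of which Slco3a1 and Slco2b1 were the largest parts.

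**Figure D3:**
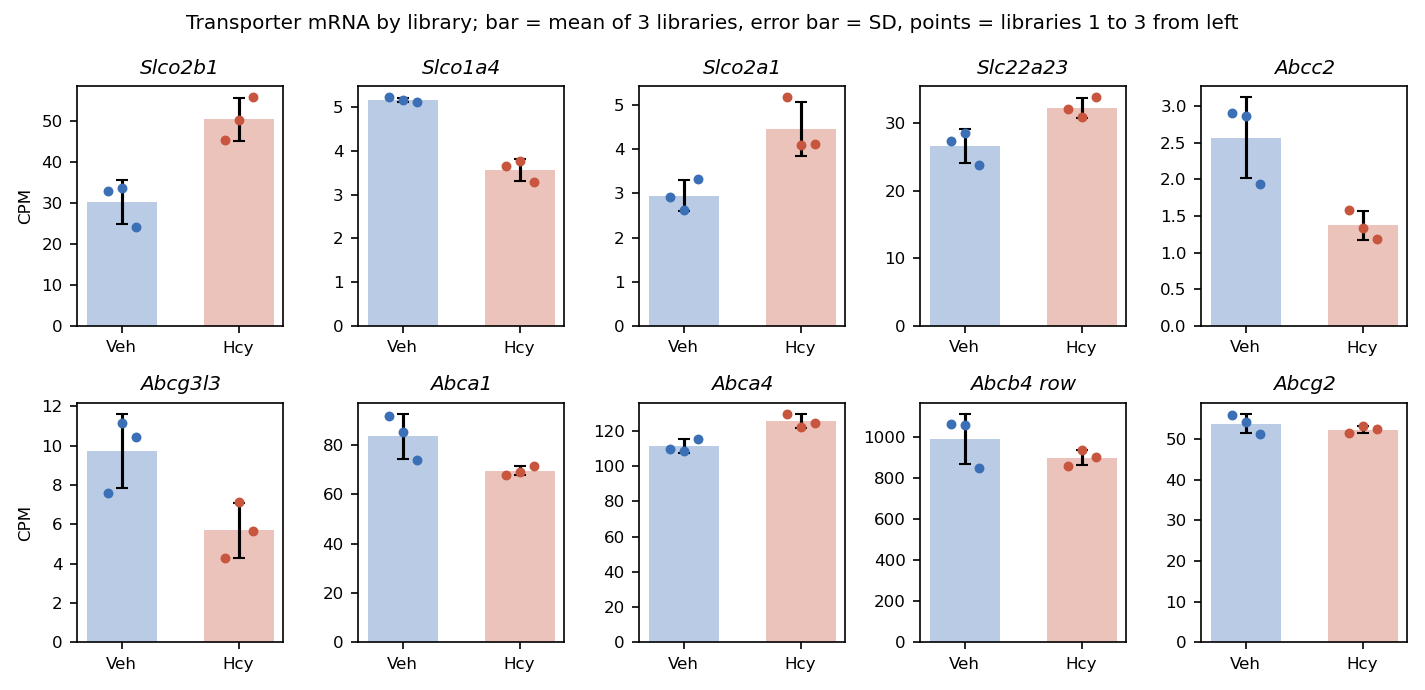
Level in CPM of the 8 members with an unadjusted p of at most 0.05, together with the Abcb4 row and Abcg2, by library (points, libraries 1 to 3 from left) with the group mean as a bar and the SD as an error bar, each panel on its own axis from 0. For Slco2b1 the Hcy points lie at 45.3 to 55.7 CPM and the Veh points at 24.0 to 33.6, while for Abcg2 and the Abcb4 row the points of the groups overlap.

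Of the 16 SLC22 rows, 6 were tested and none passed. Slc22a23, a member with no established substrate, was the highest at 3.99 ± 0.376 CPM per kb in Veh (SD, n = 3). It was at 27.4, 28.5 and 23.7 CPM in Veh1 to Veh3 and at 32.0, 30.8 and 33.8 in Hcy1 to Hcy3, with every Hcy library above Veh (log2 fold change 0.28, 95% interval 0.06 to 0.50, edgeR adjusted p = 0.237). Slc22a15 followed at 2.36 ± 0.512 CPM per kb and Slc22a5, the carnitine transporter Octn2, at 1.54 ± 0.198, with log2 fold changes of 0.18 and −0.23 and overlapping groups. Slc22a18 was at 1.13 ± 0.178 CPM per kb in Veh, and its Hcy libraries lay above Veh (0.48, 95% interval −0.08 to 1.05, adjusted p = 0.466). Slc22a17, the lipocalin-2 receptor, had 0.24 (−0.37 to 0.85). The value of Slc22a17 was 0.0080 without Hcy3 and reached 0.45 without Hcy2, and that of Slc22a15 was 0.048 without Veh3 and 0.36 without Veh2, while that of Slc22a5 was −0.14 without Veh3. Slc22a8, the organic anion transporter Oat3 that removes anions from brain, had only 4, 5 and 9 counts in Veh1 to Veh3 and 6, 10 and 9 in Hcy1 to Hcy3. Slc22a20 and Slc22a13, the next organic anion transporters by level, had 6 and 4 counts in all.

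Among the lipid transporters of the ABCA family, 9 of 16 rows were tested, 8 higher and 1 lower by the fit, and none passed. Their median log2 fold change was 0.14, beside −0.02 over all genes. Abca3, which loads phospholipid into lamellar bodies in lung, was the highest at 18.8 ± 2.07 CPM per kb in Veh and 19.9 ± 0.456 in Hcy (SD, n = 3). Abca4, the retinoid importer of photoreceptors, was at 110, 108 and 116 CPM in Veh1 to Veh3 and at 129, 122 and 125 in Hcy1 to Hcy3. Its groups did not overlap, with a log2 fold change of 0.17 (95% interval 0.02 to 0.33, edgeR adjusted p = 0.311). Abca7 was also above Veh in every Hcy library, at 0.11 (−0.06 to 0.27), but it overlaps Palm on the same strand, which held 4232 counts beside its own 7339.

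Abca1, which exports cholesterol to apolipoprotein A-I, went the other way. It was at 91.5, 85.1 and 73.7 CPM in Veh1 to Veh3 and at 67.8, 69.0 and 71.6 in Hcy1 to Hcy3. The Hcy libraries lay just below the lowest Veh library, Veh3. The log2 fold change was −0.26 (SE 0.09, 95% interval −0.47 to −0.06, edgeR adjusted p = 0.226), and without Veh3 it was −0.35 with an adjusted p of 0.0137.

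In the ABCG family Abcg1, a cholesterol exporter to HDL, was abundant at 39.1 ± 2.87 CPM per kb in Veh and 37.1 ± 1.24 in Hcy (SD, n = 3), with a log2 fold change of −0.07 (95% interval −0.25 to 0.10, edgeR adjusted p = 0.760), or −0.026 without Veh1 and −0.13 without Veh3. Abcg3l3, a rodent relative of Abcg2, had 128, 175 and 151 counts in Veh1 to Veh3 and 60, 106 and 95 in Hcy1 to Hcy3, at 9.73 CPM in Veh and 5.70 in Hcy. Its groups did not overlap, and the log2 fold change of −0.77 (95% interval −1.27 to −0.27) had an adjusted p of 0.138 with edgeR, 0.0378 with DESeq2 and 0.0489 with the replicate block. Abcg3l1 had 0.42 (−0.09 to 0.94, adjusted p = 0.491). These rows share 1 protein match with 6 further rows, and their counts may be split between near-identical copies. The sum of the 8 rows gave −0.12 with an adjusted p of 0.754, an alternative chosen after seeing the data.

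No soluble or peroxisomal ABC gene passed the test. Abcf1, Abce1, Abcf2 and Abcf3, soluble ATPases of translation and ribosome recycling, were at 57.5 ± 4.2, 48.9 ± 2.06, 45.1 ± 2.45 and 22.5 ± 0.683 CPM per kb in Veh (SD, n = 3), and summed to 174 ± 5.22 in Veh and 171 ± 2.41 in Hcy. Their log2 fold changes lay between −0.12 and 0.02, and only Abcf3 (−0.12, 95% interval −0.28 to 0.04) had groups that did not overlap. That was 25% of the 4 genes, beside 20.1% of all genes tested. In peroxisomes, Abcd3 at 20.8 ± 0.605 CPM per kb in Veh imports fatty acids, and its log2 fold change was 0.00 (−0.16 to 0.16). Abcd4, of lysosomal cobalamin release, had −0.03. Abcd2 had 4, 5 and 0 counts in Veh1 to Veh3 and 1, 0 and 0 in Hcy1 to Hcy3. No group had its counts above the floor of 3 in every library, and the fit gave −2.71 with a 95% interval of −5.94 to 0.52 (edgeR adjusted p = 0.479).

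The organelle ABCB genes comprised 5 tested members, none of which passed. Mitochondrial Abcb8 stood at 10.8 ± 0.648 CPM per kb in Veh (SD, n = 3) and Abcb10, of haem synthesis, at 5.88 ± 0.909. Their log2 fold changes were 0.04 and −0.03, with overlapping groups, and the summed level of the 5 was 29.7 ± 2.24 in Veh and 29.3 ± 1.46 in Hcy. The bile salt pump Abcb11 had 5 counts in all. Of the sulfonylurea receptors, Abcc8 had 4 counts in all and Abcc9, the subunit of vascular KATP channels, had 6, 7 and 4 counts in Veh1 to Veh3 and 2, 13 and 16 in Hcy1 to Hcy3, with overlapping groups.

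No gene on the list of transporter regulators, most of them transcription factors, passed the test. Whether they control the carriers in these cells was not tested. Of 27 listed, 21 were tested, and 0 passed in edgeR's test, with 4 at an unadjusted p of at most 0.05 (13.4% of all genes), 3 of them higher and 1 lower. The pregnane X receptor Nr1i2, the xenobiotic receptor that induces P-glycoprotein in liver and brain capillaries, had 0 counts in every library. The constitutive androstane receptor Nr1i3 was at 5.09 CPM per kb in Veh and 4.47 in Hcy, and Ahr at 6.78 and 5.90. Nfe2l2, which encodes Nrf2, was at 128 CPM per kb in Veh and 129 in Hcy, with a log2 fold change of 0.01 (95% interval −0.14 to 0.16). The 4 were Ahrr, the repressor of Ahr, at 0.90 (0.13 to 1.67, edgeR adjusted p = 0.271), the sterol regulator Srebf2 at 0.24 (0.03 to 0.44, 0.285), Nfkb1 at 0.22 (0.02 to 0.41, 0.311) and the glucocorticoid receptor Nr3c1 at −0.31 (−0.51 to −0.10, 0.152).

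Of 15 tested genes of drug conjugation, glutathione and redox metabolism, 4 passed (26.7%, beside 2.34% of all genes), all of them lower. Nqo1, a quinone reductase, fell from 778 ± 69.0 to 386 ± 15.5 CPM (log2 fold change −1.01, edgeR adjusted p = 0.00047), and Hmox1, which degrades haem, from 101 ± 5.39 to 44.6 ± 2.91 (−1.17, 0.000355; SD, n = 3). Both kept the call under every alternative run. Gsta1, a glutathione transferase, had −1.69 (adjusted p = 0.0272) and the thioredoxin reductase Txnrd1 −0.35 (0.0232). Gsta1 lost the call without Veh2, Hcy1, Hcy2 or Hcy3 (0.0888 to 0.140), and Txnrd1 lost it with the replicate block (0.0558) and in each fit that left out a library other than Veh3 (0.0781 to 0.137). The list mixes drug-conjugating enzymes such as Gsta1 with genes of haem, thioredoxin and glutathione metabolism, and none of its members is a carrier.

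Another list held drug carriers and related genes outside the symbol rule, Tap1, Tap2 and Mvp among them. Of its 23 tested genes, 1 passed (4.35%, beside 2.34% of all genes). Slc7a5, the large neutral amino acid transporter that also takes up L-DOPA, rose from 122 ± 3.37 to 161 ± 10.7 CPM (SD, n = 3; log2 fold change 0.40, 95% interval 0.23 to 0.57, edgeR adjusted p = 0.0297). It lost the call in each fit that left out a library other than Veh3 (0.0878 to 0.148). Of 9 tested scaffolds and caveolar proteins that hold transporters at the membrane, 1 passed (11.1%, beside the same 2.34%), Slc9a3r2, a PDZ adaptor that fell from 224 ± 16.5 to 160 ± 6.63 CPM (−0.49, 95% interval −0.66 to −0.31, adjusted p = 0.0145). Without Hcy1, Hcy2 or Hcy3 its adjusted p was 0.0664, 0.0873 and 0.103. Cav1, the caveolin, was abundant at 1353 CPM per kb in Veh with a log2 fold change of 0.00.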

How the data were processed

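Read counts for 33566 genes, without normalization, were deposited by the authors, with gene positions, listed lengths and protein matches. The submitters' processing notes name fastp, HISAT2 2.2.1, StringTie 2.2.3, Cufflinks, featureCounts 2.0.6 and DESeq2 1.42.0 and the build mRatBN7.2 (rn7), but the table itself names no build and its positions are given as listed. A deposited table of the authors' own comparison (fold changes and p-values) was not used.

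Libraries were grouped by their labels. With R 4.3.3, genes with at least 10 counts over the 6 libraries were compared by edgeR 4.0.16 (quasi-likelihood test, TMM factors, condition as the only term, Benjamini-Hochberg adjustment over all 14603 genes tested). Passing means an adjusted p of at most 0.05. CPM per kb divides TMM-scaled CPM by the listed length. Start regions came from RefSeq (GRCr8). Counting intervals and floors cover counting error only. The tests were also run on simulated data, where the share of wrong calls was above the nominal level.

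Genes named were those passing, the listed barrier pumps, the 3 highest of each family by Veh level per kb, members with an unadjusted p of at most 0.05, and passing genes of the regulator, carrier, scaffold and conjugation lists. Some genes that meet this rule are not reported here. Other names were chosen after their values were seen. The members and lists were chosen with earlier results of these data known. Alternatives were DESeq2, other scaling factors, count filters, protein-coding genes only, the replicate number as a block, unadjusted p, a prior count of 2, rows sharing a protein match summed (added after seeing the data) and leaving out each library.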

Additional observations from a re-analysis of the deposited data

How the results depend on the processing

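No member was differentially expressed under any alternative for which members were counted. A prior count of 2 and the summed rows were not among these, here or in the next count. The number passing an adjusted p of at most 0.05 was 1, and it was 2 with DESeq2 and 2 with the replicate block (Abcg3l3 and Slco2b1), 0 to 3 when a library was left out (Abca1, the Abcb4 row and Slco2b1 without Veh3), and 1 under the other settings. The median log2 fold change of members was −0.031 to 0.067 when a library was left out (−0.031 without Hcy2), against 0.03. Over all genes tested, 341 passed, 612 with DESeq2, 298 with the replicate block, and 80 to 957 with a library left out, the most without Veh3.

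Samples of the same replicate number did not deviate together (r of −0.01 to 0.11 for the 3 pairs), so the block is given only as an alternative. It turned Abcc4 to 0.013.

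Fitted changes near 0 changed sign under some settings. Abcd3 was at 0.0027 with DESeq2, 0.0028 with its size factors, 0.0022 with library totals and 0.00010 with filterByExpr. Abcc4 was at 0.0020 with DESeq2 and 0.0018 with its size factors. With a library left out, the log2 fold change ran from −0.082 to 0.022 for Abcf1, −0.035 to 0.070 for Abce1, −0.064 to 0.015 for Abcf2, −0.0046 to 0.15 for Abca3, −0.024 to 0.012 for Abcd3, −0.15 to 0.090 for Abcc4, −0.043 to 0.15 for Abcc5, −0.19 to 0.19 for Abcc1, −0.029 to 0.073 for Abcb8, −0.17 to 0.10 for Abcb10, −0.093 to 0.039 for Abcd4, −0.16 to 0.22 for Abcc3 and −0.53 to 0.037 for Abcc6. The sum of rows sharing its protein match turned Abcg3l1 to −0.12. The cause of these changes of sign was not tested. Without a sign change, the value of Abcg2 ran from −0.0092 without Veh1 to −0.073 without Veh3 and that of the Abcb4 row from −0.085 to −0.24 in the same fits. Members with few counts, such as Abcd2 (10 in all), had wide intervals.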
